A study of Sus scrofa with 4 samples.

Results

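Small RNAs were compared between vascular stem cells of pig taken from subcutaneous fat (SVSC) and from a back muscle, longissimus dorsi (IVSC), both after adipogenic induction. The comparison rests on 2 of the 4 libraries of the series, SVSC MDI and IVSC MDI, with 1 library in each group. The other pair, SVSC and IVSC without induction, is used here only to show whether an origin difference was present before MDI. Both cultures were primary cells at passage 1 in medium with 20% fetal bovine serum, plated at 1000000 (SVSC) and 1500000 (IVSC) cells per well. MDI held 0.5 mM IBMX (a phosphodiesterase inhibitor that raises cAMP), insulin at 5 mg/l and 0.25 µM of the glucocorticoid dexamethasone. From day 3 the medium lacked the inhibitor and the glucocorticoid, growth medium came back at day 6, and the cells were kept for 3 or 4 days more, without a statement of which library had which. The labels call all 4 cultures adipose derived, the muscle ones included. Strain, age and sex of the pigs, and whether the cultures shared an animal, are not stated in the labels. Origin, animal, plating density and harvest day therefore cannot be told apart in any difference below.

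A microRNA (miRNA) is cut from a hairpin precursor of RNA. One arm, the mature strand, is usually loaded into an Argonaute protein and guides it to messenger RNAs that it represses, while the other arm, the star strand, is mostly lost. Fat cells and muscle cells come from related mesenchymal precursors. Muscle carries its own set of miRNAs (miR-1, miR-133, miR-206), and many miRNAs are known to promote or to restrain the conversion of precursors to adipocytes. Fat within muscle and fat under the skin differ in value for meat quality, which is why their precursors are compared in the pig.

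The SVSC MDI library held 2573249 miRNA reads and the IVSC MDI library 14810112, which is 5.76 times as many. With 3 reads as the limit that a count of 0 allows, the floor was 1.17 reads scaled to a total of 1000000 miRNA reads (CPM) in SVSC MDI and 0.203 CPM in IVSC MDI. Reads were found for 181 and 186 of 189 miRNAs. Levels are given as CPM and differences as the ratio of SVSC MDI over IVSC MDI, or its inverse, with an exact 95% interval in parentheses. These intervals cover counting error only, since amplified reads are not independent molecules, and no difference has a replicate check. In bulk RNA, fewer cells of a type and less RNA per cell cannot be told apart.

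After MDI most miRNAs lay close between the origins, and those that differed held a small share of the reads. A miRNA was compared where either library had 10 CPM or more of it. Of 147 such miRNAs, 76 (51.7%) lay within 1.5-fold of each other. A difference was counted from 2-fold upward, where the counting interval also left out 1: 26 (17.7%) were higher in SVSC MDI and 15 (10.2%) lower. At least 4-fold differences were seen for 5 higher and 7 lower miRNAs. Together these 41 miRNAs held 4.27% of the miRNA reads of SVSC MDI and 2.15% of those of IVSC MDI. Counted over the whole hairpin, the smooth muscle miRNA miR-143 was the most abundant in both. It stood at 390300 CPM in SVSC MDI and 387914 CPM in IVSC MDI (ratio 1.01). Of its reads 99.95% in SVSC MDI and 99.96% in IVSC MDI lay outside the annotated mature strand, which had 528 and 2334 reads. Among mature reads miR-21 was the most abundant in both libraries. miR-21, abundant in many dividing cells, stood at 262881 and 336082 CPM (ratio 0.782), and miR-378, which lies in an intron of the coactivator gene PPARGC1B, at 88560 and 64200 CPM (ratio 1.38). Across the 147 miRNAs the log2 levels of the libraries gave a correlation of 0.941 by Pearson's r and 0.939 by Spearman's rho, as a description across miRNAs. The balance of the counts depended on the total used for scaling. Higher miRNAs made up 63.4% of those counted when scaled to miRNA reads and 19.4% (7 higher, 29 lower) when scaled to all reads of a library, which moved every log2 ratio by -0.52. Of the 26 higher miRNAs 7 were counted under all 5 scalings tried, and of the 15 lower ones 13.

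**Figure D1:**
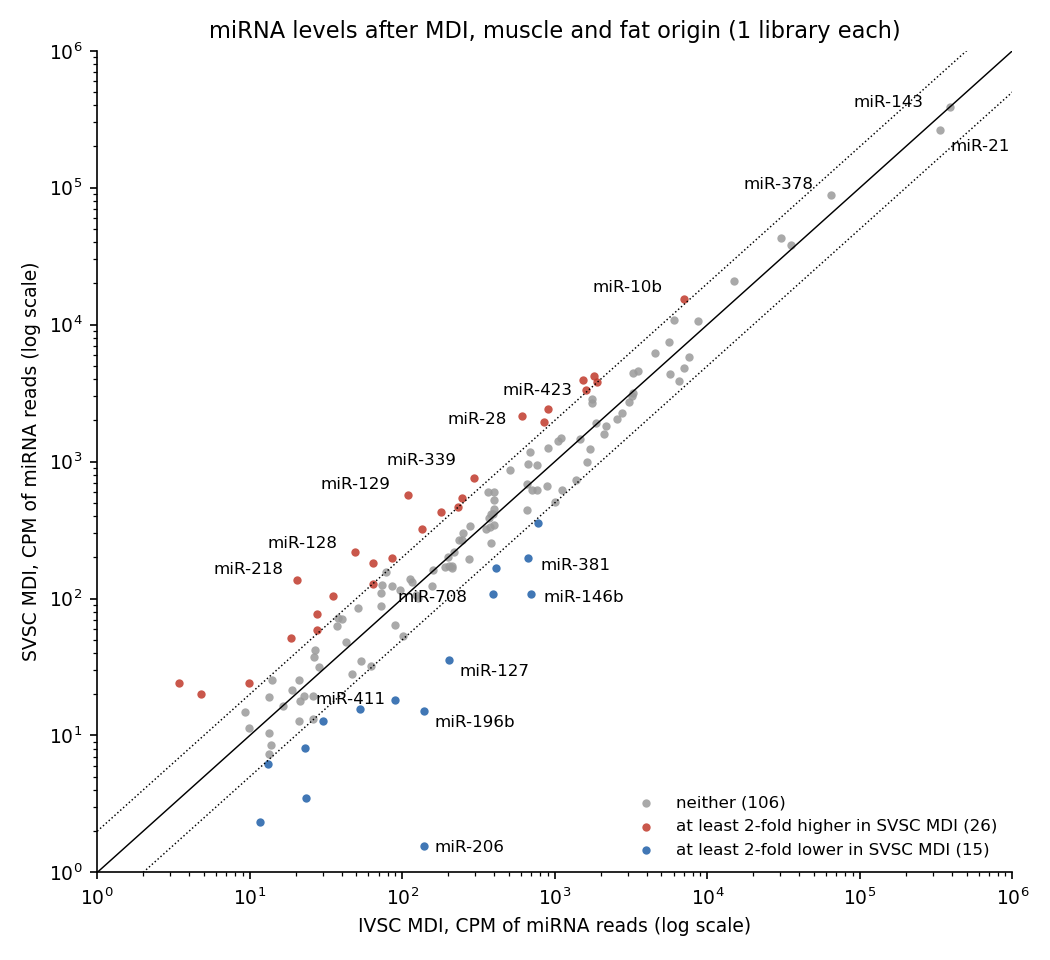
Level of each of 147 miRNAs in IVSC MDI (horizontal) and SVSC MDI (vertical), in CPM of miRNA reads on log scales, with 1 library per axis. The solid line marks equal levels and the dotted lines 2-fold differences: 26 miRNAs lie above and 15 below, miR-206 furthest, while miR-143 and miR-21 lie near the solid line.

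The widest gap was that of miR-206, a miRNA of skeletal muscle and its myoblasts. It had 4 reads in SVSC MDI (1.55 CPM) and 2068 in IVSC MDI (139.6 CPM), an 89.8-fold difference (35.0 to 330.0). Reads on the mature strand alone gave 4 and 2057. The ratio was the largest of all 147, on few reads on the fat side. The other skeletal muscle miRNAs did not share this gap. miR-1 stood at 661 and 882 CPM (ratio 0.749, 0.712 to 0.788), miR-133b had 42 and 244 reads (log2 ratio -0.01) and miR-499 27 and 197 (log2 ratio -0.34). miR-133a was higher in SVSC MDI, at 199 against 85.5 CPM (2.32-fold, 2.09 to 2.58). Its reads lay on the rest of the hairpin, with 0 and 5 reads on the annotated mature strand, and the difference fell short of 2-fold when scaled to all reads (log2 ratio 0.70). Of 5 muscle miRNAs compared, 1 was thus higher and 1 lower (beside 17.7% and 10.2% of all 147). Their median log2 ratio was -0.34 beside 0.13 for all 147.

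miR-196b, encoded within a HOX gene cluster that marks position along the body axis, had 39 reads in SVSC MDI (15.2 CPM) and 2053 in IVSC MDI (138.6 CPM), a 9.15-fold difference (6.67 to 12.9). Another HOX cluster miRNA, miR-10b, went the other way, at 15493 against 7023 CPM (2.21-fold higher in SVSC MDI, 2.18 to 2.23). miR-10b was the most abundant of all miRNAs counted as different. It was short of 2-fold when scaled to all reads (log2 ratio 0.62). Its close relative miR-10a had a log2 ratio of -0.20. The HOX list thus held miRNAs on both sides.

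miR-146b, which is reported to promote adipocyte differentiation, stood at 107.6 CPM in SVSC MDI and 693.7 CPM in IVSC MDI (6.44-fold lower in SVSC MDI, 5.72 to 7.29). miR-708, encoded in an intron of a teneurin gene, stood at 108.4 and 392.2 CPM (3.62-fold lower, 3.21 to 4.09). miR-34c, a miRNA induced by p53, stood at 166.3 and 409.5 CPM (2.46-fold lower, 2.23 to 2.72), whereas its relative miR-34a had 865 and 512 CPM (log2 ratio 0.76). miR-20a, of the proliferation-linked miR-17-92 cluster, stood at 357.1 and 778.9 CPM (2.18-fold lower, 2.04 to 2.34). All 4 were also at least 2-fold lower on mature reads alone and under every scaling tried.

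A group on the muscle side came from the imprinted DLK1-DIO3 locus, a cluster of miRNAs and small nucleolar RNAs read from the maternal chromosome and prominent in muscle precursors. Of 34 miRNAs listed for it, 15 had reads in these libraries, and all 15 had negative log2 ratios, from -2.73 to -0.40, some of them on fewer than 10 reads in SVSC MDI. Together they held 309.7 CPM in SVSC MDI and 1125 CPM in IVSC MDI. Of the 8 at 10 CPM or more, 6 were at least 2-fold lower in SVSC MDI (beside 10.2% of all miRNAs). On mature reads 5 of the 8 were, with miR-136 added (9 and 110 reads) and miR-381 and miR-376a no longer counted. On exactly matching reads 2 were. Of these 8, miR-136, miR-369 and miR-376a reached 10 CPM in IVSC MDI alone, so their number is a description. miR-381 had 511 and 9846 reads, 198.6 against 664.8 CPM (3.35-fold lower, 3.06 to 3.67). miR-127, which lies antisense to an imprinted retrotransposon-like gene, had 92 and 3011 reads, 35.8 against 203.3 CPM (5.69-fold lower, 4.62 to 7.08). miR-411 had 47 and 1325 reads, 18.3 against 89.5 CPM (4.90-fold lower, 3.66 to 6.70). The others counted were miR-299 (40 and 779 reads), miR-369 (9 and 344) and miR-376a (6 and 173). Nearly all reads of miR-381 lay outside its annotated mature strand, which held 1 and 14 reads, and miR-376a had 0 and 3 there.

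Rfam entries of the same locus were lower in SVSC MDI as well. The Rfam family SNORD113, C/D box small nucleolar RNAs from this locus, had 83 reads in SVSC MDI and 1225 in IVSC MDI, and the Rfam miRNA family mir-154, whose members sit in it too, 127 and 1876. Both were 3.68-fold lower as a share of all reads, with intervals of 2.94 to 4.65 and 3.07 to 4.44. Scaled to miRNA reads, their ratios were 0.390. Reads of the mir-154 family and of the hairpins may overlap. In SVSC MDI C/D box RNAs were lower as a class (ratio 0.501 of all reads, 0.719 per miRNA read).

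On the fat side, the largest ratios at 100 CPM or more were those of miR-218, encoded within the SLIT guidance genes, and miR-129. miR-218 had 349 reads in SVSC MDI and 301 in IVSC MDI, 135.6 against 20.3 CPM (6.67-fold, 5.70 to 7.81). miR-129 had 1458 and 1623 reads, 566.6 against 109.6 CPM (5.17-fold, 4.81 to 5.55). Neither difference lay on the annotated mature strand. All reads of miR-218 fell on the rest of its hairpin, and of miR-129 96.4% in SVSC MDI and 74.7% in IVSC MDI did. The mature strand of miR-129 had 52 and 410 reads and a log2 ratio of -0.43, so its direction depends on which arm is counted. miR-128, a miRNA enriched in neurons, had 565 and 723 reads, 219.6 against 48.8 CPM (4.50-fold, 4.02 to 5.03). Its mature reads gave 543 and 685 (log2 ratio 2.22), and it was counted under every scaling. miR-128 and miR-184 (52 and 71 reads, 4.22-fold) were the only higher miRNAs counted on mature reads and under all 5 scalings. miR-28, from an intron of the LPP gene, stood at 2154 against 613 CPM (3.51-fold, 3.40 to 3.63), with all reads on the rest of its hairpin.

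Several further miRNAs on the fat side were abundant and differed by 2- to 3-fold. let-7e stood at 3911 against 1522 CPM (2.57-fold, 2.51 to 2.63) and let-7c at 4236 against 1803 CPM (2.35-fold, 2.30 to 2.40), both of a family that restrains proliferation. miR-423 stood at 2417 against 903 CPM (2.68-fold, 2.60 to 2.76), miR-339 at 764 against 295 CPM (2.59-fold, 2.46 to 2.74) and miR-99b, encoded beside let-7e, at 1944 against 855 CPM (2.27-fold, 2.20 to 2.35). miR-505 (2.39-fold), miR-744 (2.40-fold) and miR-27b, which is reported to repress PPARγ (2.02-fold), were higher too. Each of these 8 was counted on mature reads and none when scaled to all reads, which left their log2 ratios between 0.50 and 0.90. With TMM factors miR-27b had a log2 ratio of 0.95 and with DESeq2 size factors 0.97, both below 2-fold. The other higher ones at 100 CPM or more were miR-296 (2.95-fold), miR-1271 (2.83-fold), miR-214, miR-532, miR-133a, miR-30b, miR-331 and miR-10b. Of these, miR-296, miR-1271 and miR-331 fell short of 2-fold on mature reads (log2 ratios 0.75, 0.97 and 0.29). miR-133a was not counted on mature reads either, while miR-214, miR-532, miR-30b and miR-10b were. Ratios of miRNAs below 100 CPM rest on fewer reads, such as that of miR-4334 (62 and 51 reads, 6.997-fold higher in SVSC MDI).

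Lists of miRNAs known for adipogenesis held members on both sides, and few members were counted. Of all 147 miRNAs compared, 17.7% were higher in SVSC MDI and 10.2% lower. Among 18 miRNAs reported to promote it, 1 was higher in SVSC MDI (miR-30b) and 2 were lower (miR-146b and miR-20a), with a median log2 ratio of -0.14 beside 0.13 for all miRNAs. Scaled to all reads, 0 were higher and 5 lower, and miR-30b was just short of 2-fold under TMM as well. Among 12 reported to inhibit it, 1 was higher (miR-27b) and 1 lower (miR-224, 21 and 340 reads), with a median of -0.09 that was 0.07 on mature reads. Scaled to all reads, 0 of these were higher and 3 lower, and miR-27b was not counted under TMM or DESeq2 either. Ratios were above 0 for 9 of the 18 and for 6 of the 12. miR-148a, of the promoting list, stood at 43045 and 30375 CPM (ratio 1.42) and miR-103, which acts on insulin signalling, had a log2 ratio of -0.28. Of 7 miRNAs linked to brown fat, miR-133a alone was counted, and miR-193a, miR-365 and miR-455 had log2 ratios of 0.19, 0.31 and 0.01. Their median of 0.19 was -0.33 when scaled to all reads. Among 3 miRNAs linked to glucocorticoid or cAMP signalling, miR-224 alone was counted.

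**Figure D2:**
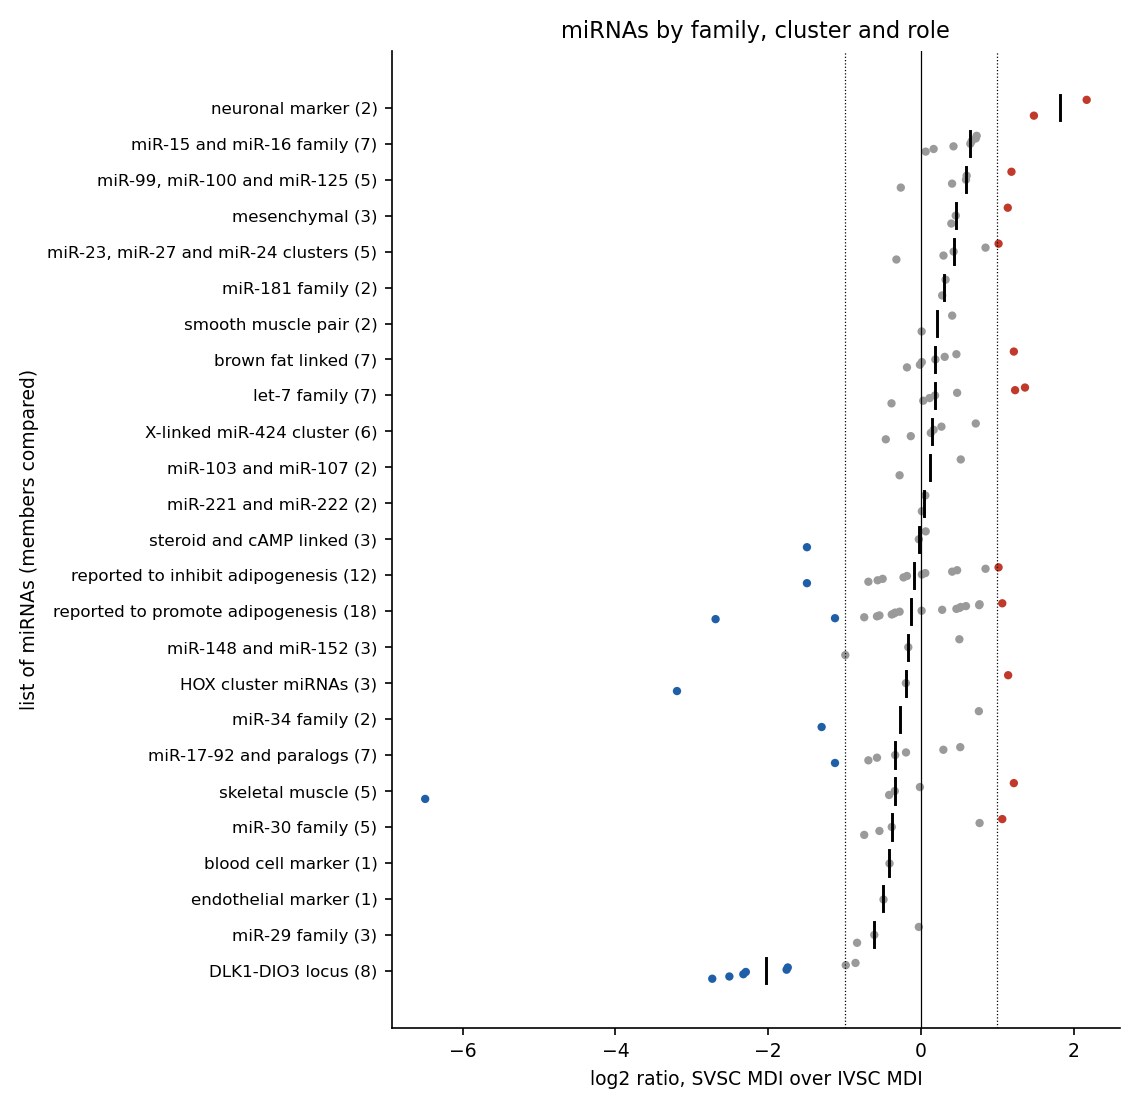
Log2 ratio of SVSC MDI over IVSC MDI for each miRNA compared (points) in families, clusters and lists (rows, with the number of members compared), with the median of each as a black bar and dotted lines at 2-fold. Red points are at least 2-fold higher and blue ones at least 2-fold lower in SVSC MDI. The DLK1-DIO3 locus lies furthest to the left, at a median of -2.03, and single members such as miR-206 and miR-196b stand apart from their lists.

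The miR-30 family, which promotes adipogenesis, differed in direction among its members and between parts of the hairpin. Counted over the whole hairpin, miR-30b stood at 3328 against 1591 CPM (2.09-fold, 2.04 to 2.14) and miR-30c at 1176 against 691 CPM (1.70-fold), while miR-30d (log2 ratio -0.74), miR-30a (-0.54) and miR-30e (-0.38) were below 0. On mature reads alone, miR-30e had 4140 reads in SVSC MDI and 84170 in IVSC MDI, a 3.47-fold lower level. The share of reads on the rest of the hairpin was larger in SVSC MDI for all 5 members, as it was for 69 of the 104 miRNAs compared, and 2 of the 5 (miR-30e and miR-30a) differed by 10 points or more. It was 72.4% against 25.1% for miR-30e, 28.4% against 6.93% for miR-30a, 12.7% against 3.84% for miR-30d, 7.90% against 3.63% for miR-30c and 5.77% against 1.54% for miR-30b. Scaled to miRNA reads, reads on the rest of the hairpin were 2.21-fold higher in SVSC MDI for miR-30e (4217 against 1909 CPM), 2.81-fold for miR-30a and 7.83-fold for miR-30b. Before MDI the share of miR-30e was 29.6% in SVSC and 32.6% in IVSC, while those of miR-30a (10.9% and 7.22%) and miR-30b (3.78% and 1.85%) were already larger in SVSC. Summed over the family, the whole hairpins held 19059 CPM in SVSC MDI and 23430 CPM in IVSC MDI.

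In the other families most members lay within 2-fold. The miR-15 and miR-16 family had 7 of 7 positive log2 ratios, from 0.06 (miR-15a) to 0.73 (miR-15b), with a median of 0.65, and none was counted. That median was 0.13 when scaled to all reads. The miR-17-92 clusters had a median of -0.34, with miR-20a the only one of 7 counted, while miR-92a had 0.51 and miR-19a 0.29. The 3 miR-29 miRNAs, which repress collagen genes, had log2 ratios of -0.84 (miR-29b), -0.61 (miR-29c) and -0.03 (miR-29a). Of the miR-99, miR-100 and miR-125 list, miR-99b alone was counted, with a median of 0.59 over 5 members and miR-100 at -0.26. The list of miR-23, miR-27 and miR-24 had a median of 0.43, turned to -0.09 by scaling to all reads, with miR-27b counted and miR-27a at 0.85. let-7 had a median of 0.18 over 7 members (-0.34 when scaled to all reads). miR-221 and miR-222, which favour the cell cycle, had log2 ratios of 0.06 and 0.01, and their median was below 0 under the TMM, DESeq2 and all-read scalings (-0.03, -0.01 and -0.49).

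Among markers of other cells, the 2 neuronal ones compared were counted higher in SVSC MDI (beside 17.7% of all miRNAs). Scaled to all reads, 1 of the 2 was. The endothelial miR-126 had 164 reads in SVSC MDI and 1327 in IVSC MDI (63.7 and 89.6 CPM), which gave a ratio of 0.711. The part of other cells in the differences was not tested. Of 5 blood cell miRNAs listed, miR-142 had 50 and 383 reads and miR-451 6 and 95, and their sum was 21.8 and 32.3 CPM. The neuronal miRNAs miR-9 (199 and 411 reads, 2.79-fold higher) and miR-128 were counted as higher in SVSC MDI, and miR-124a had 1 and 0 reads. Scaled to all reads, miR-9 was short of 2-fold (log2 ratio 0.96). The marker set of the design named miR-9 and miR-124, while miR-128 came from a list chosen with earlier results known. Of 7 epithelial miRNAs listed, miR-205 alone had an entry among the pig hairpins, with 9 and 5 reads, the Rfam family mir-203 had 88 and 229 reads, and the liver miRNA miR-122 had 5 and 46. The mesenchymal miRNAs miR-199a, miR-199b and miR-214 were abundant in both, with log2 ratios of 0.40, 0.46 and 1.14 (miR-214 at 540 against 246 CPM). Their median of 0.46 was -0.06 when scaled to all reads. The smooth muscle miRNA miR-145 stood at 7440 and 5605 CPM.

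The question then was which of these differences were present before induction. Between SVSC and IVSC, of 148 miRNAs 11 (7.43%) were higher and 31 (20.9%) lower, against 26 and 15 after MDI. These counts rest on scaling to miRNA reads. TMM factors before MDI were 0.887 for SVSC and 1.13 for IVSC, which would raise every ratio of SVSC over IVSC. After MDI they lay nearer 1, at 1.02 for SVSC MDI and 0.977 for IVSC MDI. The balance before MDI and the share of kept signs can thus depend on the scaling too. The comparisons share no library. Of 15 miRNAs lower after MDI, 8 were lower before it too (53.3% of the later list and 25.8% of the earlier one): miR-206, miR-146b, miR-708 and 5 of the DLK1-DIO3 locus. Of 26 higher after MDI, 2 were higher before (7.69% and 18.2%): miR-129 and miR-27b. Across 140 miRNAs compared at both stages, 55% kept the sign of their ratio, and Pearson r was 0.526 with Spearman rho at 0.184. The spread of the log2 ratios was smaller after MDI, at an SD of 1.12 against 1.51 before. miR-206 weighs heavily in both SDs, and 78 of the 140 (55.7%) had a smaller absolute log2 ratio after MDI.

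Of the 8 miRNAs lower at both stages, miR-206 and those of the DLK1-DIO3 locus had smaller gaps after MDI, and miR-146b (log2 ratio -1.41 before, -2.69 after) and miR-708 (-1.61 and -1.86) larger ones. miR-206 stood at 2.79 CPM in SVSC and 4874 CPM in IVSC before MDI, a log2 ratio of -10.77 against -6.49 after. The DLK1-DIO3 list had a median of -3.57 before and -2.03 after. Before MDI miR-381 stood at 268 against 3051 CPM and miR-127 at 53.0 against 771 CPM. miR-196b, in contrast, had 82.8 and 125.6 CPM before, a log2 ratio of -0.60, against -3.19 after. miR-34c was 312 against 160 CPM before, above 0 at a log2 ratio of 0.97, and miR-20a 1513 against 1592 CPM.

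On the fat side, 5 miRNAs were at least 2-fold lower in SVSC before MDI and at least 2-fold higher after it. miR-10b stood at 1546 CPM in SVSC and 3980 CPM in IVSC before, and miR-339 at 50.5 and 189.5 CPM. miR-133a stood at 21.6 and 78.2 CPM, miR-676 at 7.08 and 28.8 CPM and miR-184 at 4.13 and 18.0 CPM. miR-128 and miR-30b had log2 ratios of -0.70 and -0.49 before. miR-218 (0.70), miR-28 (0.50), miR-9 (0.81) and let-7e (0.64) were above 0 at both stages. Of the 26 higher miRNAs of SVSC MDI, 19 lay within 2-fold or were not compared before induction.

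**Figure D3:**
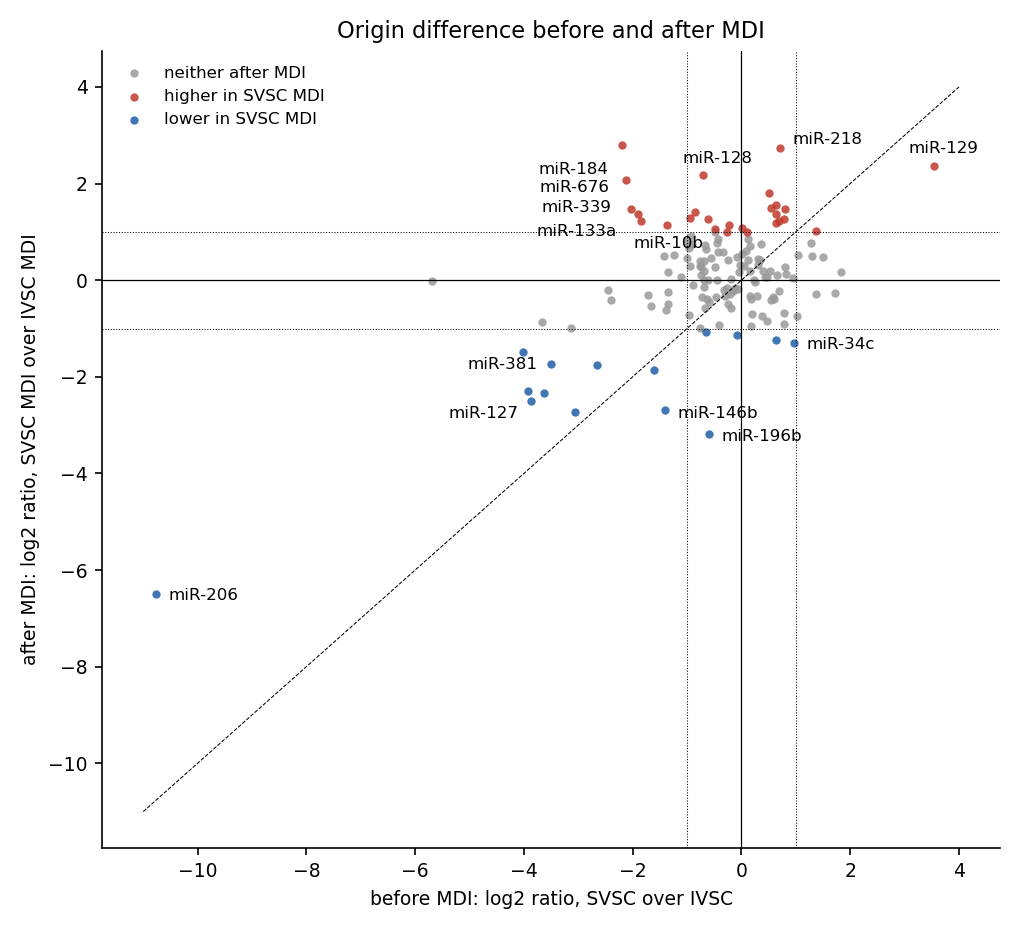
Log2 ratio of fat over muscle origin before MDI (horizontal) and after MDI (vertical), with dotted lines at 2-fold and a dashed line of equal ratios. Points are the miRNAs compared after MDI that had reads before it, without the 10 CPM minimum before MDI. miR-206 and the DLK1-DIO3 miRNAs miR-127 and miR-381 lie low at both stages, while miR-10b, miR-339, miR-133a, miR-676 and miR-184 lie in the upper left, lower before and higher after.

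The forms of the miRNAs were compared as shares of their reads. Among 88 miRNAs with at least 200 mature reads in both libraries, the share of mature reads that matched the annotated sequence exactly differed by 10 percentage points or more, with intervals apart, for 6. It was larger in SVSC MDI for 2 (2.27%) and smaller for 4 (4.55%). miR-21 had 50.3% exact reads in SVSC MDI and 33.9% in IVSC MDI, against 14.1% in SVSC and 18.8% in IVSC before MDI. miR-10a had 78.1% and 59.1%. The smaller shares were those of miR-185 (64.4% and 79.1%), miR-17 (75.1% and 86.0%), miR-374a (27.9% and 38.8%) and miR-339 (22.6% and 33.8%). Over all hairpins exact reads made up 64.6% of mature reads in SVSC MDI and 53.5% in IVSC MDI, and without miR-21 73.6% and 73.3%. Leaving out miR-21 thus brought the totals of the libraries close together.

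The share of reads on the rest of the hairpin was compared for 104 miRNAs. It was larger in SVSC MDI for 7 (6.73%) and smaller for 3 (2.88%). Beside miR-30e, miR-30a and miR-129, the larger shares were those of miR-335 (76.9% and 59.2%), miR-708 (26.5% and 12.2%), miR-331 (79.7% and 66.1%) and miR-296 (84.7% and 72.6%). Scaled to miRNA reads, the level of such reads was 3.45-fold higher in SVSC MDI for miR-296 and 2.42-fold for miR-331. For miR-335 its ratio was 1.02 and for miR-708 0.601. The smaller shares were those of miR-193a (42.4% and 67.9%), miR-500 (19.7% and 39.4%) and miR-22 (48.5% and 59.2%). Of 7 miRNAs with an annotated star strand and enough reads, 1 (14.3%) had a larger star share, miR-374a at 73.6% in SVSC MDI and 53.3% in IVSC MDI. Its star share was 83.7% in SVSC and 65.3% in IVSC before MDI, so the order of origins was the same at both stages.

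**Figure D4:**
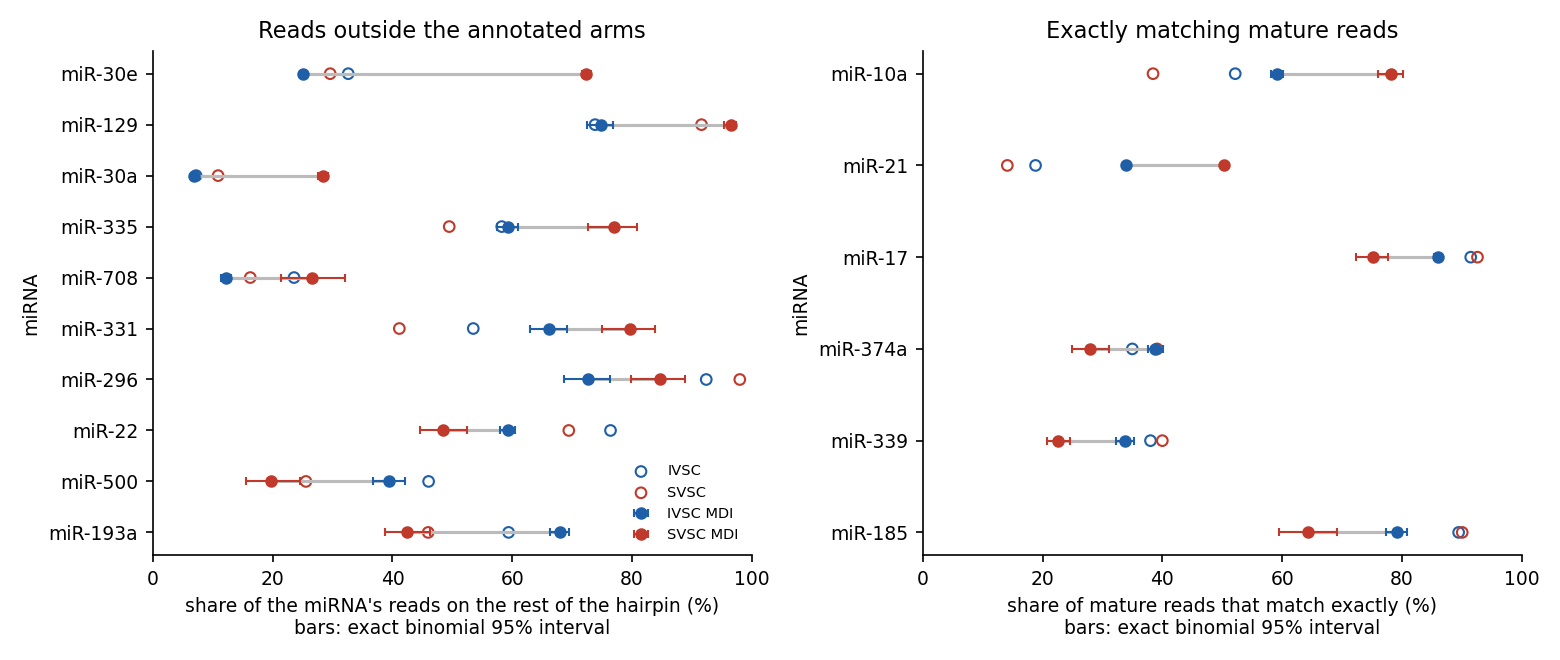
Share of a miRNA's reads on the rest of its hairpin (left) and share of mature reads that match exactly (right), in percent, for the miRNAs whose shares differed by at least 10 points between SVSC MDI (filled red) and IVSC MDI (filled blue), with exact binomial 95% intervals. Open circles are the libraries before MDI. miR-30e has the widest gap on the left, 72.4% against 25.1%, and miR-21 lies at 50.3% and 33.9% on the right.

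Outside the pig hairpins, the libraries differed in composition. Hairpins held 55.01% of all reads in SVSC MDI and 77.02% in IVSC MDI, Ensembl non-coding RNAs 38.5% and 13.99%, Rfam entries 6.16% and 8.47%, and piRNA entries 0.332% and 0.515%. The transcripts ENSSSCT00000020202 and ENSSSCT00000020550, with almost the same counts in each library, held 18.3% of the reads each in SVSC MDI and 4.90% each in IVSC MDI, a 3.72-fold difference. The files do not pair these transcripts with gene names. With the pair and hairpin copies taken once, hairpins held 65.1% and 79.8%. Among 480 entries at 10 CPM of all reads or more, 31 (6.46%) were higher in SVSC MDI and 142 (29.6%) lower. With the pair taken once in the total, these were 39 and 98, and scaled to miRNA reads 92 and 79. The number of entries at 10 CPM or more changes with the total, and the balance of higher and lower entries depended on it. The transcripts with the largest ratios on the muscle side were ENSSSCT00000021034 (62 and 3329 reads, 13.4-fold lower in SVSC MDI) and ENSSSCT00000019753 (764 and 16883 reads, 5.50-fold lower).

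As class totals, small nuclear and nucleolar RNA fragments lay on the muscle side, though for U RNAs and H/ACA box RNAs a single family set this direction. As shares of all reads, spliceosomal U RNAs, which remove introns, had a ratio of 0.406 (247 and 2443 reads), C/D box RNAs, which guide methylation of ribosomal RNA, 0.501 (1760 and 14096), and H/ACA box RNAs, which guide its pseudouridylation, 0.560 (663 and 4756). Per miRNA read these ratios were 0.582, 0.719 and 0.802, all still below 1. U2 held 155 and 2089 of the U RNA reads and SNORA73 477 and 4334 of the H/ACA reads. The totals of the U RNA and H/ACA classes thus largely follow 1 family each. As shares of all reads, the remaining H/ACA reads lay on the fat side and the remaining U RNA reads near equal. Families of C/D box RNAs lay on both sides, with ratios from 0.199 (SNORD51) to 1.46 (SNORD53_SNORD92) as shares of all reads. Fragments of tRNA had a ratio of 0.741 and of rRNA 0.719, and these were 1.06 and 1.03 per miRNA read. Y RNA stood at 0.787 and 1.13 by the same measures. Fragments of 7SK, which holds back transcription elongation, went the other way at 1.89 and 2.71 (508 and 1080 reads). Single 7SK entries lay on both sides, with 3 higher and 1 lower of 4 compared as shares of all reads. Of 53 Rfam families compared, 4 (7.55%) were higher and 17 (32.1%) lower in SVSC MDI as shares of all reads. Scaled to miRNA reads the balance turned, with 19 higher and 9 lower of 64. SNORD51 was 5.02-fold lower (72 and 1452 reads), SNORD99 3.38-fold (209 and 2834), U2 3.36-fold (155 and 2089) and SNORA73 2.26-fold (477 and 4334), which was under 2-fold per miRNA read (ratio 0.633). Before MDI their log2 ratios were -0.84, 0.21, -0.44 and -0.28.

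**Figure D5:**
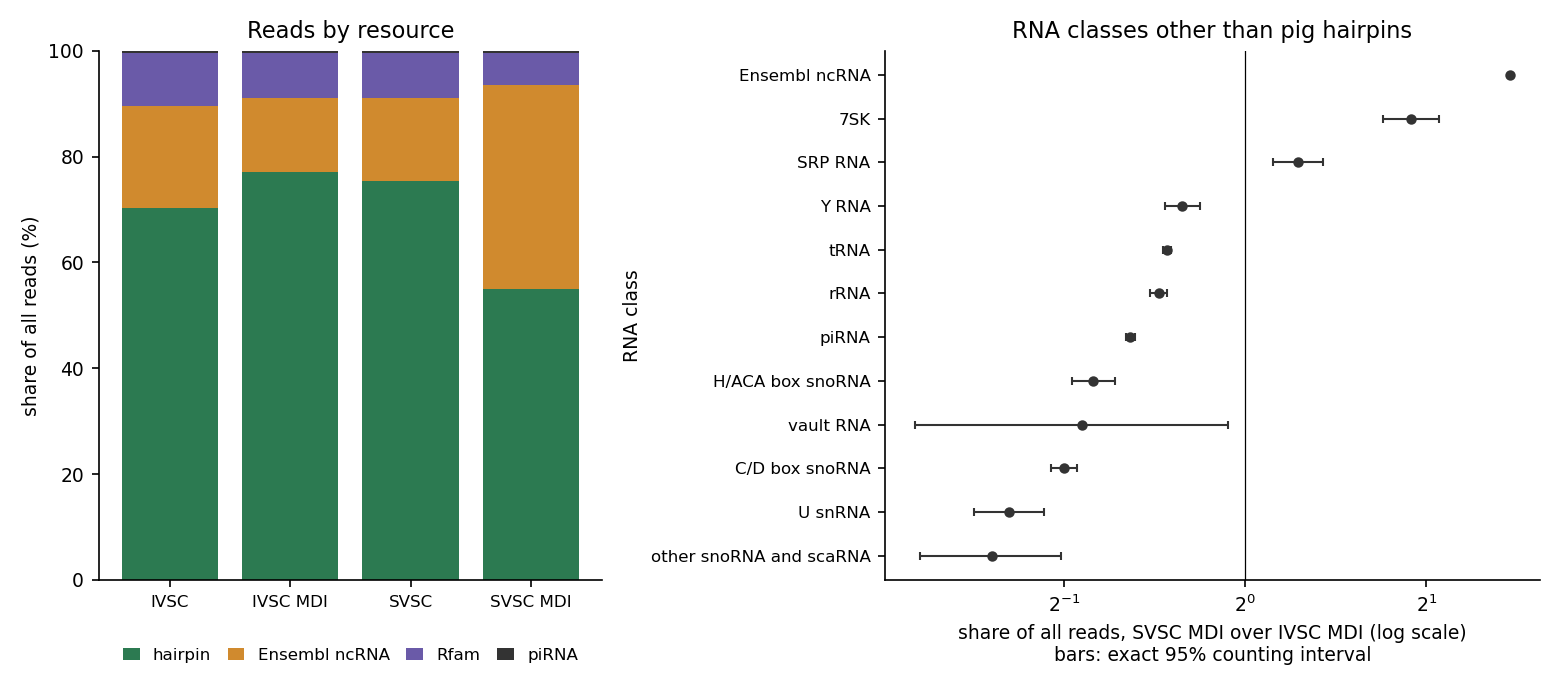
Left, share of all reads by resource in the 4 libraries, in percent, with hairpins lowest and Ensembl non-coding RNAs largest in SVSC MDI. Right, ratio of each RNA class as a share of all reads, SVSC MDI over IVSC MDI, on a log scale with exact 95% counting intervals: U RNAs and C/D box RNAs lie below 1 and 7SK above it.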

How the data were processed

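Small RNA of 16 to 35 nt was read over 36 cycles on the Illumina 1G instrument, after 12 cycles of PCR on about 10 µg of RNA, per the labels' protocols. The deposited values are read counts per feature, per the file headers, from 4 resources: hairpins of pig, Rfam, a piRNA set and the non-coding RNAs of Ensembl (Sscrofa9.61). A mouse build, mm9, appears in the submitters' processing notes with no role. The aligner and its settings: not given in the sources used here. In the SVSC file the deposited column for mature reads with 1 match holds 1 damaged tRNA value, so that column is treated as a score and used for hairpins only. An unnamed sum entry of the SVSC MDI file was left out.

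Copies of a hairpin were counted once (the largest copy plus the uniquely matching mature reads of the others). Counts were scaled to CPM of miRNA reads, or of all reads for other RNA. With 1 library per group there is no test across samples. Ratios carry exact 95% intervals (Clopper-Pearson on both counts, SciPy 1.17.1, Python 3.11.15), and a count of 0 was set to 3 reads. Shares needed 200 reads in both libraries. Alternatives were the TMM factors of edgeR 4.0.16 and the size factors of DESeq2 1.42.0 on the deposited counts, 2 other totals, mature or exact reads, summed copies and other count minimums. Scaling to all reads with copies and an Ensembl pair taken once was added after seeing the data. The interval script was checked on simulated data. Named are the 15 largest ratios each way at 100 CPM or more, the 10 most abundant miRNAs, list members, the 10 largest of other RNA and the 10 largest form changes. The members and lists were chosen with earlier results of these data known. Names miR-18a and miR-20a follow synonyms in a RefSeq table of pig genes on Sscrofa11.1, which also gave neighbouring hairpins (180 of 205 matched). No sequences or coordinates are printed.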

Additional observations from a re-analysis of the deposited data

Results flagged for a closer look

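For 5 miRNAs the origin difference had opposite signs before and after MDI, at least 2-fold each way, so that the log2 ratio of fat over muscle origin was larger after MDI. The change was 2.51 for miR-10b (2.48 to 2.53), 3.28 for miR-339 (3.15 to 3.42), 3.07 for miR-133a (2.85 to 3.29), 3.50 for miR-676 (3.08 to 3.91) and 4.20 for miR-184 (3.57 to 4.84). The intervals cover counting error only. With 1 library per group the difference between stages was not tested. Scaled to all reads, miR-184 alone stayed 2-fold higher after MDI (log2 ratio 1.56), and miR-10b (0.62), miR-133a (0.70), miR-339 (0.86) and miR-676 (0.95) did not. On mature reads miR-133a had 0 reads in SVSC MDI and miR-676 had 1.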

How the results depend on the processing

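No paired analysis was possible because each group has 1 library and the labels give no replicate numbers. The 26 higher and 15 lower miRNAs became 7 and 29 when scaled to all reads, and 13 and 25 with hairpin copies and the Ensembl pair taken once, an alternative added after seeing the data. On exactly matching reads 9 were higher, and at 100 CPM or more 8 were lower. Under the other settings the counts stayed within 1.5 times. TMM moved every log2 ratio by -0.07, DESeq2 size factors by -0.05. On mature reads 16 of the 26 and 13 of the 15 were still counted, and 7 others were added, miR-30e among them (-1.79, and -1.36 on exact reads). miR-30a was past 2-fold lower when scaled to all reads (-1.06). The ratio of miR-129 turned to -0.43 on mature and -1.05 on exact reads, and that of miR-331 to -1.59 on 1 and 14 exact reads. The cause was not tested. Ratios with no read in 1 library under a setting (such as miR-376a on mature reads) rest on the floor of 3 reads and are not given.

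Of the other RNA entries, 31 higher and 142 lower became 342 and 351 when scaled within their own resource, 92 and 79 when scaled to miRNA reads, 220 and 419 without a minimum and 6 and 28 at 100 CPM. The number of entries compared changes with the scaling and the minimum, so these counts are not shares of the same 480 entries. Scaled to miRNA reads, an alternative added after seeing the data, 19 Rfam families were higher and 9 lower. Hairpins held 52.5% (SVSC MDI) and 75.7% (IVSC MDI) of reads with copies taken once, and 65.1% and 79.8% with the pair taken once too. The star share differed for 2 miRNAs at 50 reads, and the share on the rest of the hairpin for 3 at 1000 reads. The shallower SVSC MDI library limits the precision of scarce miRNAs.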

Other observations

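Hairpins that lie within 10 kb of each other on the pig genome can be read from 1 precursor. Of 25 such clusters with at least 2 miRNAs compared, 14 had ratios of 1 sign, some sharing miRNAs. Most clusters had only 2 miRNAs compared, where a shared sign says little. The pair of miR-181a and miR-181b entered 2 times with the same values. The 14 also held miR-221 and miR-222 (log2 ratios 0.06 and 0.01), whose median fell below 0 under other scalings. miR-125a, let-7e and miR-99b, of 1 cluster, had log2 ratios of 0.59, 1.36 and 1.18, and miR-99a and let-7c, of a related one, 0.41 and 1.23. Both clusters pair a let-7 miRNA with relatives of the miR-99 and miR-125 families, and both lay on the fat side. A further cluster of this kind, let-7a and miR-100, was split, with log2 ratios of 0.47 and -0.26. Scaling to all reads moves each of these by -0.52, which takes miR-99a and let-7a below 0. Some neighbours lay far apart. miR-206 and miR-133b, neighbours in muscle, stood at -6.49 and -0.01, and miR-30d and miR-30b at -0.74 and 1.06.

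The Rfam family lsrR had 580 reads in SVSC MDI and 278 in IVSC MDI, 8.37-fold higher, and 1 and 8 reads in SVSC and IVSC. Its entries are not from pig, and what the reads are was not tested.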
